A study of Homo sapiens with 16 samples.

Results

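The genes described here are 9 feedback inhibitors of NF-κB, chosen by name: NFKBIA, NFKBIB, NFKBIE, NFKBIZ, BCL3, TNFAIP3, TNIP1, TNIP2 and CYLD, out of 20033 protein-coding genes. Around each of them, H3K27ac peaks were read from 16 peak lists in 2 windows. The promoter window reached 2 kb to each side of the GENCODE start site, and the locus window was the gene body with 50 kb added to each side. In each window the number of peaks, the length under a peak and the highest fold enrichment of chromatin over input were recorded. H3K27ac is an acetylation of histone H3 that marks active promoters and enhancers.

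The study asked how TWEAK, a cytokine of the TNF family, alters the enhancers of triple-negative breast cancer cells through its receptor Fn14, the product of TNFRSF12A. The lists came from the established cell lines MDA-MB-231 and Hs578T, each with an Fn14 knockout (KO) and its control, untreated or given TWEAK, with 2 lists in each of 8 groups. All cells were starved in Opti-MEM for 8 h. The exposure to TWEAK, at 10 ng/ml with a fresh dose at 24 h, lasted 48 h. The KO cells had been made with a CRISPR vector into which 2 guides were cloned, and were identified by western blotting and Sanger sequencing. The labels give no clone number, no vector for the control cells and no word on separate cultures. The study's methods state at least 2 biological replicates for ChIP-seq in cell lines. The p-values below measure the spread between these lists.

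NF-κB is a family of transcription factors held in the cytoplasm of resting cells by the IκB proteins. Receptors of the TNF family free it through chains of ubiquitin and the IKK kinases, and NF-κB then switches on several of its own inhibitors. These act at successive levels: IκBα (NFKBIA), IκBβ (NFKBIB) and IκBε (NFKBIE) bind NF-κB dimers, BCL3 and IκBζ (NFKBIZ) act on NF-κB in the nucleus, A20 (TNFAIP3) and its partners ABIN1 (TNIP1) and ABIN2 (TNIP2) restrain ubiquitin-dependent signalling, and CYLD is a deubiquitinase.

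The lists held 39544 to 47197 peaks covering 64.2 to 88.9 Mb, with a median fold enrichment of 5.0 to 5.89. The untreated Fn14 KO pair of MDA-MB-231 was the most uneven, with 46295 and 39544 peaks. The read depth behind each list is unknown, because the lists hold no read counts. VIM, CD44 and EGFR, genes of mesenchymal-like breast cancer cells, had a promoter peak in 8 of 8 lists of each line, and ESR1 and PGR, the oestrogen and progesterone receptor genes, in 0 of 8. ERBB2, which encodes HER2, and the luminal gene GATA3 had a promoter peak in 8 of 8 lists of each line, at a fold enrichment of 12.3 to 23.3 and 3.62 to 6.46, and the leukocyte genes PTPRC and CD3E in 0 of 8. The promoter peak of TNFRSF12A itself reached 32.6 to 38.2 in the 8 control lists and 16.2 to 22.3 in the 8 Fn14 KO lists, so the groups did not overlap. These values are not centred on the list median. Without centring, the median log2 difference over all promoters was -0.14 for untreated KO against control cells. The share of all promoters that separate in this way was not counted. H3K27ac at that promoter does not by itself measure loss of the receptor.

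The promoters of several members carry the κB consensus, the sequence to which NF-κB dimers bind. Stretches of 250 bases before RefSeq start sites (build GRCh38.p14) were found for 8 of the 9 genes, searched for the 10-base κB consensus and for the AP-1 consensus TGANTCA on both strands. NFKBIE had no entry in that table. At the RefSeq start nearest to the GENCODE start, 5 of the 8 genes held a κB match (NFKBIA, NFKBIZ, TNFAIP3, TNIP1 and CYLD) and 0 held an AP-1 match, against 11.1% and 4.93% of 15345 genes with a stretch chosen in the same way. Over every RefSeq start, several for some genes, a κB match was in 7 of 13 member stretches and an AP-1 match in 1, against 9.96% and 6.57% of 35116. A second NFKBIB start, 269 bp from the GENCODE start, held 2 overlapping κB matches and that AP-1 match. The TNIP1 stretch lies 12543 bp from the GENCODE start, within the gene, and the BCL3 stretch 1003 bp from it. Those of NFKBIA, TNFAIP3 and CYLD are shown because these loci gained the largest shares of covered bases in the comparison with TWEAK. They run 5′ to 3′ in the direction of the gene and end before the GENCODE start, and the capitals mark κB matches.
NFKBIA, chr14:35404750-35404999, minus strand: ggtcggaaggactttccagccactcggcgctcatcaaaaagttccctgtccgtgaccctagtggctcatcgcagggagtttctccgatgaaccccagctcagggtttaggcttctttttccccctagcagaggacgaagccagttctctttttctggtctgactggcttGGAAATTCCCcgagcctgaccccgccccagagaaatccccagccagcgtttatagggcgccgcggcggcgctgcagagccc
TNFAIP3, chr6:137867009-137867213, plus strand: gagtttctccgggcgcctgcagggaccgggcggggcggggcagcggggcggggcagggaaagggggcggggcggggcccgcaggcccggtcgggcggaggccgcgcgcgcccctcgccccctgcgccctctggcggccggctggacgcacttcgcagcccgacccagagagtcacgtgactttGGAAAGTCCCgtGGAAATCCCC
CYLD, chr16:50741836-50742049, plus strand: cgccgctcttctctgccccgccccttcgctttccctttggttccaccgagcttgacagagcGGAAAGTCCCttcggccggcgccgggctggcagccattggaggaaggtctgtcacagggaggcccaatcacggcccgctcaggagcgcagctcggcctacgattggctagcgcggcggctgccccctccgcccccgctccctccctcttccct
TNFAIP3 has 2 matches, at -67 and -55 from the RefSeq start, while NFKBIA has its match at -81 and CYLD at -189. A match describes the letters and does not show that a factor was bound.

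In control cells the H3K27ac landscape of 5 of the 9 loci was wider with TWEAK, and that of 0 was narrower, by limma on the log2 length under a peak with 1 kb added (Benjamini-Hochberg adjusted over 17915 genes). On that scale TNFAIP3 stood first at 3.25-fold, followed by NFKBIA at 1.59-fold, CYLD at 1.58-fold, NFKBIZ at 1.5-fold and TNIP1 at 1.34-fold. The added 1 kb understates the change of a short covered length such as that of CYLD, so the order of close values depends on it. Over all genes tested, 6.78% were called higher and 10.5% lower, or 1215 against 1883, and 2419 against 2607 when lengths were scaled to the list total. The median log2 difference was 0.43 over the 9 members and -0.05 over all genes. At the promoters, 7 members rose in fold enrichment and 1, BCL3, fell, against 12.2% higher and 14.1% lower of 10570 genes with a promoter peak in all lists, with a median of 0.51 against -0.01. Without centring on the list median the calls over all genes were 1343 higher and 758 lower, in place of 1293 and 1491. In Fn14 KO cells limma called 0 members and 0 genes at either window, where 345 locus values and 447 promoter values had an unadjusted p under 0.05.

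**Figure D1:**
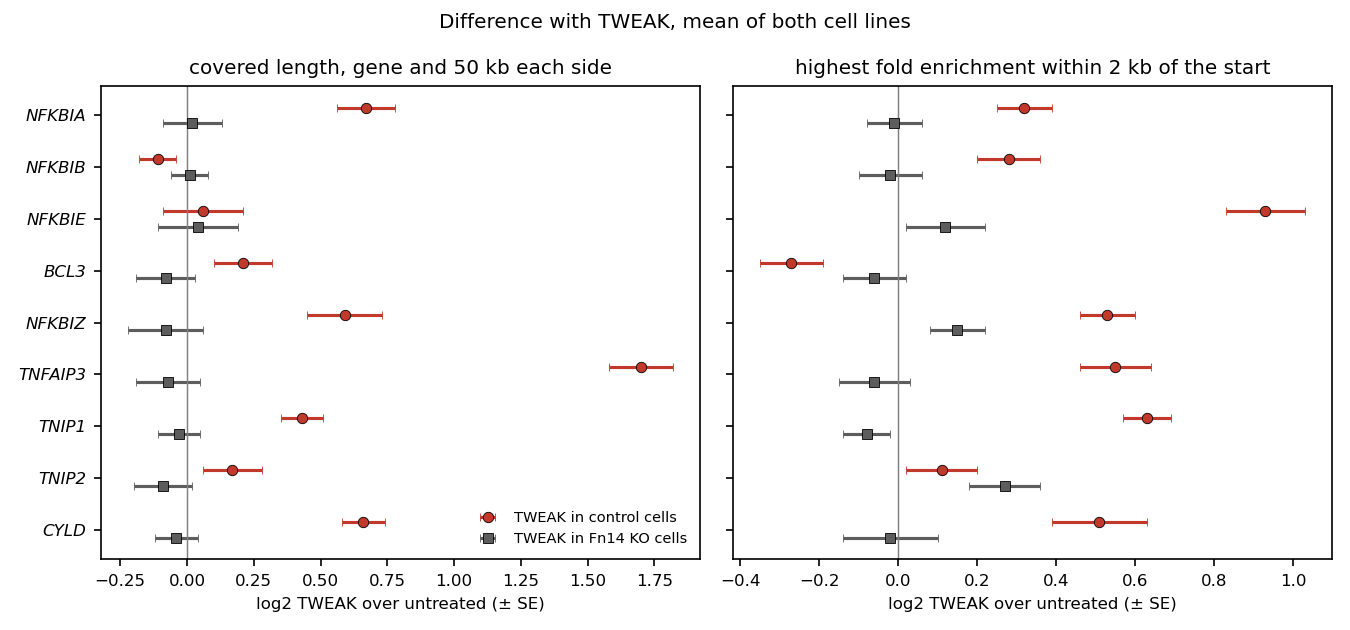
Log2 difference of TWEAK over untreated lists for the 9 genes (points, with SE as bars), averaged over both lines, for the length under a peak in the locus window (left) and the highest fold enrichment in the promoter window (right). Red circles are control cells and grey squares Fn14 KO cells. The locus differences in control cells run from -0.11 for NFKBIB to 1.70 for TNFAIP3, and those in KO cells lie between -0.09 and 0.04.

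NFKBIA encodes IκBα, the classical inhibitor that NF-κB induces to end its own activity (hg38 chr14:35401079-35404749, minus strand), and no other protein-coding gene starts in its window. In MDA-MB-231 control cells 11.1 and 13.4 kb lay under a peak without TWEAK and 21.0 and 21.7 kb with it. The Hs578T control values were 13.0 and 13.9 kb without and 20.1 and 21.2 kb with it. All 4 TWEAK values exceeded every untreated and KO value, the highest of which was 14.5 kb. The log2 difference in control cells was 0.67 ± 0.11 (SE, adjusted p = 0.00098).

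The number of NFKBIA peaks did not pass (log2 -0.11, adjusted p = 0.77, over a range of 2.8e-05 to 0.77 in all settings), and no region was gained or lost in control cells of either line. The region 10.4 kb before the start held 844 and 2398 bp under a peak without and 3958 and 4148 bp with TWEAK in the MDA-MB-231 control lists, and 641 and 765 bp without and 3374 and 3796 bp with it in those of Hs578T. In the KO lists it held 0 to 776 bp, fewer than in any TWEAK control list. A neighbouring region 15.4 kb before the start (chr14:35418815-35421560, intergenic) rose in height from 9.42 and 8.38 to 17.2 and 19.7 in MDA-MB-231, and from 7.60 and 6.76 to 13.6 and 12.1 in Hs578T (log2 0.87 ± 0.11, adjusted p = 3.1e-06).

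The highest NFKBIA peak was not at the promoter but 38.8 kb after the start (chr14:35363877-35367959, intergenic). Among the MDA-MB-231 control lists it stood at 23.8 and 25.4 without TWEAK and at 41.7 and 40.3 with it. Among those of Hs578T it stood at 28.6 and 21.8 without and at 35.8 and 35.5 with it. The KO lists lay at 16.2 to 22.2, below every control list except 1 untreated Hs578T list at 21.8, and the log2 difference in control cells was 0.56 (adjusted p = 5.1e-05). These heights are not centred on the list median. Over all promoters, uncentred values were lower in untreated KO than in control cells (median log2 -0.14). After centring, no NFKBIA region was called different between untreated KO and control cells. At the promoter, MDA-MB-231 went from 13.9 and 14.4 to 17.4 and 16.8 and Hs578T from 8.61 and 8.55 to 11.7 and 12.2 (log2 0.32 ± 0.07, adjusted p = 0.002).

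NFKBIB encodes IκBβ (chr19:38899700-38908893, plus strand), and 7 other protein-coding genes start in its window. SIRT2 shares its promoter region. The locus held 6.58 to 8.74 kb over the 16 lists, with no base gained in both lines (log2 -0.11, adjusted p = 0.29). The promoter value went from 11.1 and 9.63 to 11.7 and 12.2 in MDA-MB-231 and from 8.16 and 8.11 to 11.5 and 10.7 in Hs578T (log2 0.28 ± 0.08, adjusted p = 0.017). The call was lost without the first Hs578T TWEAK list (adjusted p = 0.059), the second MDA-MB-231 TWEAK list (0.053) or the second untreated MDA-MB-231 list (log2 0.18, adjusted p = 0.08). The lists separated with TWEAK in both control lines, by a narrow margin in MDA-MB-231. MACS2 averages enrichment over a broad peak, so a narrower peak can have a higher value, and the covered promoter length was 2404 and 2643 bp without and 1979 and 1930 bp with TWEAK in MDA-MB-231. The part of peak width in this result was not tested. The excess over KO cells was 0.29 (adjusted p = 0.094), and 0.38 without the first untreated MDA-MB-231 control list (adjusted p = 0.02).

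NFKBIE encodes IκBε, an IκB that is itself resynthesised after NF-κB activation (chr6:44258166-44265788, minus strand). It lies among 8 other protein-coding gene starts within the window. Its promoter had the largest rise of the 9. The fold enrichment went from 5.08 and 6.90 to 12.7 and 13.1 in MDA-MB-231 control cells and from 3.41 and 4.25 to 6.69 and 7.02 in Hs578T. KO lists lay between 4.10 and 5.78. In Hs578T the TWEAK values were thus above all KO and untreated values of that line. The log2 difference was 0.93 ± 0.10 (adjusted p = 1.4e-05) and its excess over KO cells 0.81 ± 0.15 (adjusted p = 0.0021). The covered promoter length was also greater, with 1121 and 2073 bp without and 2309 and 2338 bp with TWEAK in MDA-MB-231, and 1272 and 993 bp without and 2344 and 2377 bp with it in Hs578T.

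The whole NFKBIE window did not follow. It held 16.9 and 26.6 kb without and 21.2 and 24.0 kb with TWEAK in MDA-MB-231, and 23.5 and 18.5 kb without and 19.7 and 22.9 kb with it in Hs578T (log2 0.06, adjusted p = 0.85). Treated and untreated lists overlapped in both lines. A small region 13.5 kb before the start, within TMEM151B and TCTE1 (chr6:44278962-44279660), was gained in both control lines. It was also present in all 4 Fn14 KO lists of MDA-MB-231, treated or not.

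BCL3, a nuclear IκB that partners NF-κB1 and NF-κB2 homodimers (chr19:44747705-44760044, plus strand), with BCAM, CBLC and CEACAM16 starting in its window, was the only member whose promoter value fell. The fold enrichment went from 28.3 and 29.5 to 22.0 and 21.8 in MDA-MB-231, and stood at 19.9 and 17.8 without and 19.4 and 17.3 with TWEAK in Hs578T. The treated and untreated lists separated in MDA-MB-231 and overlapped in Hs578T. The mean log2 difference was -0.27 ± 0.08 (adjusted p = 0.014), and its excess over KO cells was -0.22 (adjusted p = 0.21). The call was lost without the second Hs578T TWEAK list (adjusted p = 0.063), the first untreated Hs578T list (0.054) or the first untreated MDA-MB-231 list (0.055). In the same MDA-MB-231 lists 2 promoter peaks became 1, and the covered promoter length was 2732 and 2980 bp without and 3808 and 3827 bp with TWEAK. The part of merging and width in the fall was not tested.

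BCL3 locus lists held 20.4 and 27.4 kb without and 27.5 and 25.9 kb with TWEAK in MDA-MB-231, and 20.3 and 21.1 kb without and 23.1 and 26.4 kb with it in Hs578T (log2 0.21, adjusted p = 0.25). Over the same windows the peaks fell in number, from 9 and 10 to 5 and 7 in MDA-MB-231 and from 10 and 11 to 7 and 6 in Hs578T (log2 -0.61, adjusted p = 0.016, over a range of 0.016 to 0.56 in all settings), so fewer and longer peaks covered the locus. In the BCL3 window a peak at the start of the neighbour BCAM (chr19:44806824-44809317) was present in both untreated control lists of each line and absent from all 4 TWEAK control lists. It was also absent from both untreated Fn14 KO lists of MDA-MB-231. It was present in 1 TWEAK KO list of that line and in every KO list of Hs578T. Its mean fold enrichment in untreated control lists was 2.82 in MDA-MB-231 and 3.19 in Hs578T.

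NFKBIZ encodes IκBζ, an inducible nuclear IκB that acts as a cofactor at some NF-κB targets (chr3:101827991-101861022, plus strand, with NXPE3 starting in its window). Its promoter rose from 11.1 and 11.7 to 17.4 and 18.4 in MDA-MB-231 control cells and from 10.4 and 11.5 to 15.1 and 16.3 in Hs578T. The KO lists lay between 9.53 and 12.6, so the 4 TWEAK values did not overlap the others. The difference was 0.53 ± 0.07 on the log2 scale (adjusted p = 6.4e-05), with an excess over KO cells of 0.39 ± 0.10 (adjusted p = 0.019, and 0.05 without the second Hs578T TWEAK list). The covered promoter length was 3272 and 3383 bp without and 3106 and 3745 bp with TWEAK in MDA-MB-231. In Hs578T it was 3426 and 3226 bp without and 2557 and 3227 bp with TWEAK. The part of peak width in this rise was not tested.

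The NFKBIZ locus length was 11.2 and 18.0 kb without and 21.8 and 25 kb with TWEAK in MDA-MB-231, and 13.8 and 15.5 kb without and 22.5 and 19.9 kb with it in Hs578T. An untreated Fn14 KO list of Hs578T reached 20.3 kb and overlapped them. The difference passed in control cells (log2 0.59 ± 0.14, adjusted p = 0.013), but not without the first Hs578T TWEAK list (adjusted p = 0.062) or the second MDA-MB-231 one (0.059). Its excess over KO cells, 0.67 ± 0.20, did not pass (adjusted p = 0.083), but passed without the second untreated MDA-MB-231 control list (0.82, adjusted p = 0.022) or the second untreated KO list of that line (0.81, adjusted p = 0.026). Much of the length came from a region over the 3′ part of the gene (chr3:101847565-101864353), with 4369 and 9843 bp under a peak without and 14034 and 15381 bp with TWEAK in MDA-MB-231. That NFKBIZ region also held 6047 to 14936 bp in the KO lists. A region 74.6 kb after the start (chr3:101901637-101903590), within a long noncoding RNA gene, went from 3.59 and 4.83 to 11.3 and 10.2 in MDA-MB-231 and from 5.09 and 3.88 to 7.87 and 7.62 in Hs578T. This was the largest rise of any member region present in all lists (log2 1.01 ± 0.10, adjusted p = 7.4e-08).

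TNFAIP3 encodes A20, an enzyme that edits ubiquitin chains on signalling proteins. The gene lies at chr6:137867214-137883314 on the plus strand of hg38, and no other protein-coding gene starts in its locus window. In MDA-MB-231 control cells 2.63 and 4.52 kb of that window lay under a peak without TWEAK, and 14.5 and 16 kb with it. In Hs578T control cells the values were 4.08 and 4.03 kb without TWEAK, and 12.7 and 14.9 kb with it. The 4 control TWEAK lists were therefore far above all others and did not overlap them. The 8 Fn14 KO lists lay between 3.30 and 4.39 kb whether treated or not. The log2 difference in control cells was 1.70 ± 0.12 (adjusted p = 2.8e-06), and that in control cells minus that in KO cells was 1.77 ± 0.17 (adjusted p = 0.00014).

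The TNFAIP3 peaks also rose in number, from 3 and 4 to 7 and 7 in MDA-MB-231 and from 3 and 4 to 6 and 7 in Hs578T. A peak at the 3′ end of the gene (chr6:137881674-137883792, exonic) and a second one in the intergenic stretch 60.3 kb after the start (chr6:137926549-137928505) appeared in both TWEAK lists of both control lines. Both were absent from the 4 untreated control lists and the 8 Fn14 KO lists. They were modest peaks. The fold enrichment of the peak at the 3′ end was 3.44, 2.68, 2.99 and 4.05, and that of the intergenic peak was 4.38, 4.12, 3.27 and 3.36. Another peak, 17.9 kb before the start within the long noncoding RNA gene WAKMAR2 (chr6:137848554-137850103), was gained in both MDA-MB-231 TWEAK lists and was present in 1 of the 2 Hs578T TWEAK lists.

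Inside TNFAIP3, the region 6.36 kb after the start (chr6:137871936-137875215) was also higher with TWEAK. Its fold enrichment was 10.7 and 9.88 in the MDA-MB-231 control lists with TWEAK, and 10.6 and 9.37 in Hs578T. Without TWEAK it had a peak in 1 of 2 lists of each line, at 2.69 and 2.72. In the KO lists it lay between 2.66 and 3.75. The promoter peak itself rose less, from 9.5 and 11.0 to 18.8 and 16.2 in MDA-MB-231, and from 10.3 and 7.99 to 12.3 and 12.2 in Hs578T. That difference was 0.55 ± 0.09 on the log2 scale (adjusted p = 0.00023). A distal region 35.9 kb before the start (chr6:137829384-137833226), present in all 16 lists, was also higher with TWEAK (log2 0.67, adjusted p = 1.7e-05).

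Base by base, 5711 bp of the TNFAIP3 window lay under a peak in all 4 control TWEAK lists and in none of the 4 control untreated lists. This was 31.1% of the 18340 bp covered in any list, and 90.8% of it was covered in none of the KO lists. Over the whole genome 1.49% of covered bases were gained by the same rule and 1.09% lost. CYLD followed with 17.3% (723 bp), and NFKBIA with 9.40% (2547 bp). The share of the gained bases that no KO list covered was 100% for CYLD, 79.7% for NFKBIA and 79.3% for NFKBIE, but 21.2% for TNIP1, 3.48% for NFKBIZ and 0% for BCL3 and TNIP2. Over the 9 windows it was 64.0%, against 62.5% over the whole genome, and NFKBIB gained no base. The middle 300 bases of 3 gained stretches are shown, from within TNFAIP3, from beyond it and from CYLD. The first and second of them come from stretches of 517 and 1025 bp, and the longest gained at TNFAIP3, of 1365 bp at 14.5 kb before and 1098 bp at 5.37 kb after the start, are not shown. The stretch within TNFAIP3 is the only one of that locus, among those searched, with both motifs, and the CYLD stretch is the only one gained at that locus. They are plus-strand sequence of hg38, and capitals mark a κB match where the run has 10 letters and an AP-1 match where it has 7.
TNFAIP3 intron, 7.12 kb after the start, chr6:137874180-137874479, plus strand: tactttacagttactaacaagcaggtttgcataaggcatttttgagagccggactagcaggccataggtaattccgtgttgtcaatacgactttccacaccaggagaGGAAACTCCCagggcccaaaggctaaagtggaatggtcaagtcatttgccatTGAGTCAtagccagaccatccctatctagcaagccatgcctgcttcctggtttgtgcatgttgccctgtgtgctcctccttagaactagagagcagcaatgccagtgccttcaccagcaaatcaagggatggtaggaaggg
Beyond TNFAIP3, 60.1 kb after the start, chr6:137927161-137927460, plus strand: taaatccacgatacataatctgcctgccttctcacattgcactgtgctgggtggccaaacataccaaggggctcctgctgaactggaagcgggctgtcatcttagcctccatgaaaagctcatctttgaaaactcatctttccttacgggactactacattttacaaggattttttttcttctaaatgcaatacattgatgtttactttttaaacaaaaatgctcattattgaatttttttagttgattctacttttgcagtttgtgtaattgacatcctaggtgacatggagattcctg
CYLD intron, 3.18 kb after the start, chr16:50745079-50745378, plus strand: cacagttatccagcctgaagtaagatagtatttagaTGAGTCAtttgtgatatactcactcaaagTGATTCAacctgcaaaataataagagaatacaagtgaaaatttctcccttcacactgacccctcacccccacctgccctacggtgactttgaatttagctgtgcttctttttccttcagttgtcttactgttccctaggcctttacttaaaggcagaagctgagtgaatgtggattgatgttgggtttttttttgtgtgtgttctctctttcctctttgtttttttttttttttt
The TNFAIP3 intron stretch holds 1 match of each kind, the stretch beyond the gene holds none, and the CYLD stretch holds 2 AP-1 matches.

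**Figure D2:**
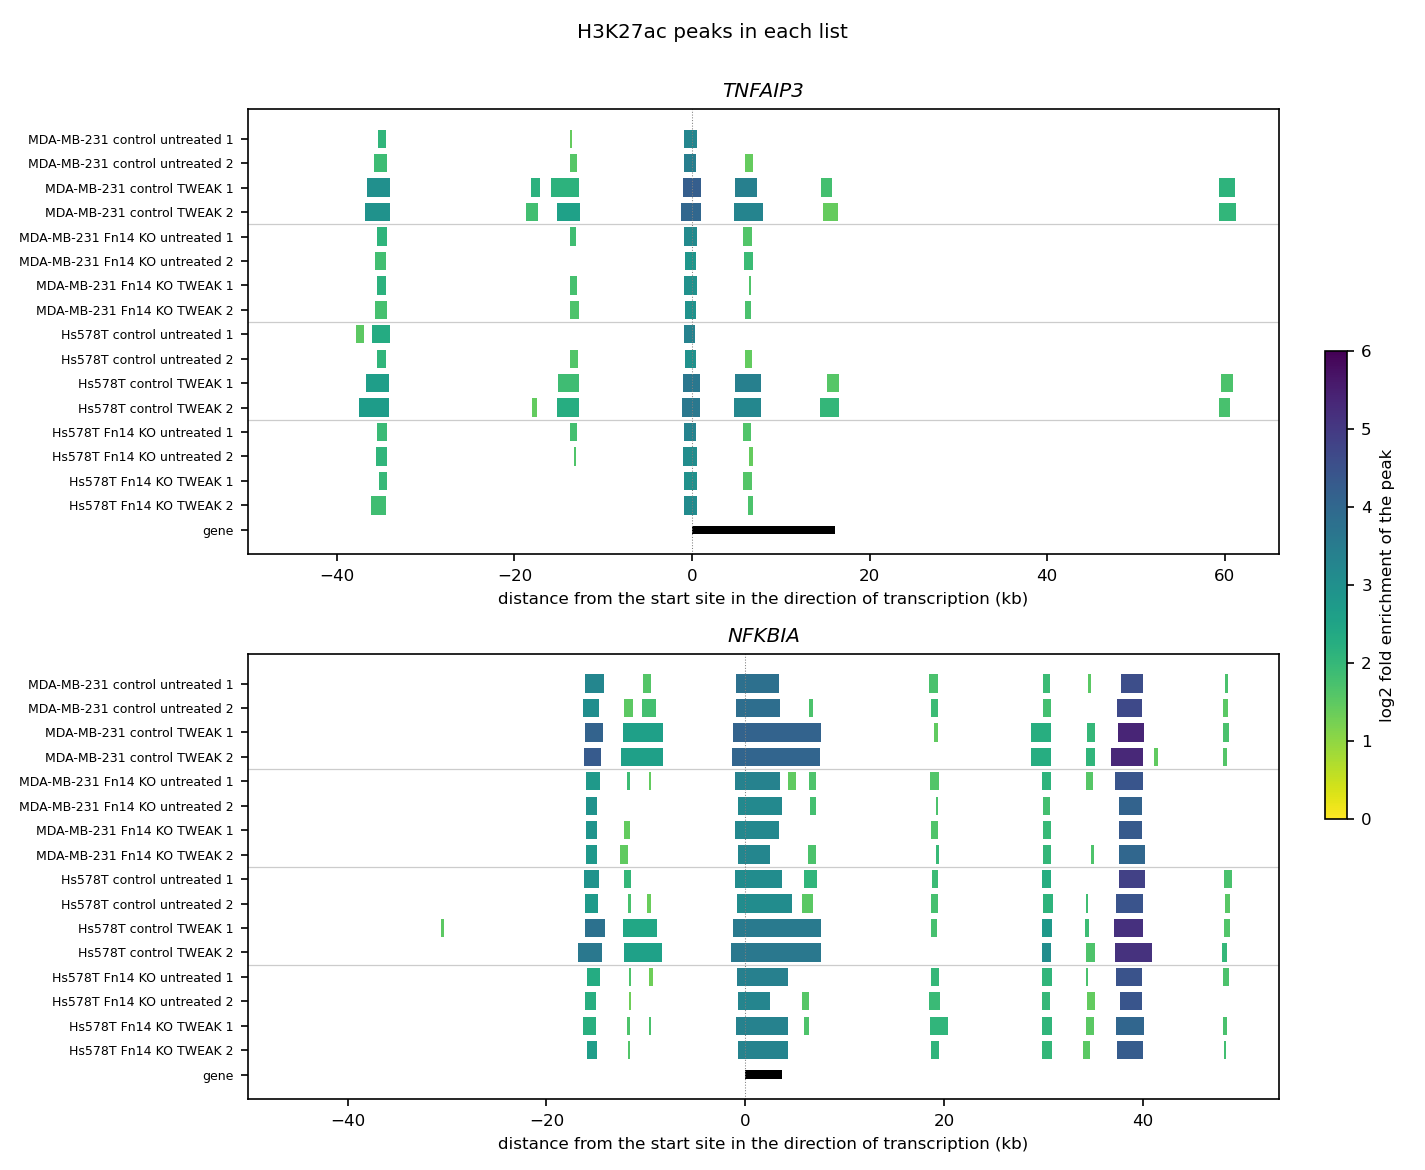
H3K27ac peaks of the 16 lists (lines of bars) against distance from the start site in the direction of transcription (kb) for TNFAIP3 (top) and NFKBIA (bottom); bar colour gives the log2 fold enrichment of the peak and the black bar the gene. The 4 control TWEAK lists of TNFAIP3 hold 6 to 7 peaks, against 3 to 4 in the other lists.

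TNIP1 encodes ABIN1, which binds A20 and ubiquitin chains (chr5:151029945-151093577, minus strand), and GPX3 is the other protein-coding gene that starts in its window. Its promoter was the most enriched of the 9. In MDA-MB-231 control cells it went from 38.1 and 44 to 71.0 and 72.5, and in Hs578T from 39.2 and 39.5 to 59.5 and 56.9. The KO lists stayed between 30.9 and 45.0, so the 4 TWEAK values were again clear of the rest. The log2 difference was 0.63 ± 0.06 (adjusted p = 5.4e-06) and its excess over KO cells 0.71 ± 0.09 (adjusted p = 0.00018).

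The length under a peak at TNIP1 rose from 24.3 and 28.0 to 36.7 and 38.1 kb in MDA-MB-231 and from 35 and 34 to 43.0 and 45.6 kb in Hs578T. The KO lists ran from 26.1 to 32.2 kb in MDA-MB-231 and from 32.0 to 37.2 kb in Hs578T, below the treated control lists of the same line. Across lines, those of Hs578T reached into the range of the treated MDA-MB-231 control lists. An intronic peak 24.4 kb after the start (chr5:151067526-151070822) was gained in both lines, and was otherwise present in 1 untreated MDA-MB-231 KO list. Within the same gene the regions did not all move one way. Those at 13.9 kb after and 1.31 kb before the start were higher with TWEAK (log2 0.67 and 0.62), while those at 29.9 and 33.1 kb after it were lower (log2 -0.54 and -0.38). The region at the start of GPX3, an antioxidant enzyme gene, was lower as well (log2 -0.35, adjusted p = 0.001).

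TNIP2, which encodes ABIN2 (chr4:2741648-2756342, minus strand, with SH3BP2 starting in its window), did not pass in either window (locus log2 0.17, adjusted p = 0.35, and promoter log2 0.11, adjusted p = 0.43). Its locus length was 12.4 and 15.3 kb without and 16.7 and 18.2 kb with TWEAK in MDA-MB-231, and 20.3 and 19.7 kb without and 18.4 and 22.2 kb with it in Hs578T. The Hs578T lists overlapped. Of the 4 regions of this window present in all lists, 1 passed. The peak 9.85 kb after the TNIP2 start (chr4:2744296-2748699, within the gene) stood at 13.9 and 14.2 without and 29.3 and 27.6 with TWEAK in MDA-MB-231, and at 12.8 and 12.4 without and 20.4 and 19.8 with it in Hs578T. KO lists lay between 9.65 and 14.9. The difference was 0.77 ± 0.09 on the log2 scale (adjusted p = 1.2e-06), and its excess over KO cells was 0.83 (adjusted p = 8.3e-05). Within 10 kb of the gene the covered length also passed (log2 0.43, adjusted p = 0.026), an alternative window whose adjusted p ranged from 0.023 to 0.82 over all settings.

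CYLD encodes a deubiquitinase that removes ubiquitin chains from proteins of the NF-κB pathway (chr16:50742050-50801935, plus strand). NOD2 is the only other protein-coding gene that starts in its window. The locus was almost bare, with a single promoter peak of 1.57 and 1.74 kb in the untreated MDA-MB-231 control lists and of 1.51 and 1.70 kb in the Hs578T ones. With TWEAK 2.99 and 3.35 kb were covered in MDA-MB-231 and 3.12 and 3.12 kb in Hs578T. The 8 KO lists held 1.34 to 1.96 kb and a single peak each, so the control TWEAK lists stood apart from all others. The log2 difference was 0.66 ± 0.08 (adjusted p = 0.00015).

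Part of that change was a new peak 2.96 kb after the CYLD start (chr16:50744316-50745695). It had a fold enrichment of 3.38 and 3.27 in MDA-MB-231 and 3.13 and 3.52 in Hs578T TWEAK lists, and was absent from the other 12 lists. The promoter peak was at 7.67 and 7.46 without and 10.9 and 12.5 with TWEAK in MDA-MB-231, but at 7.93 and 4.80 without and 8.54 and 8.86 with it in Hs578T. The untreated Hs578T pair thus spread widely. The promoter difference was 0.51 ± 0.12 in control cells (adjusted p = 0.0069), and its excess over KO cells was 0.53 (adjusted p = 0.058). Without the first of these untreated Hs578T lists that excess was 0.70 (adjusted p = 0.0047), and without the first untreated MDA-MB-231 KO list it was 0.61 (adjusted p = 0.046).

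**Figure D3:**
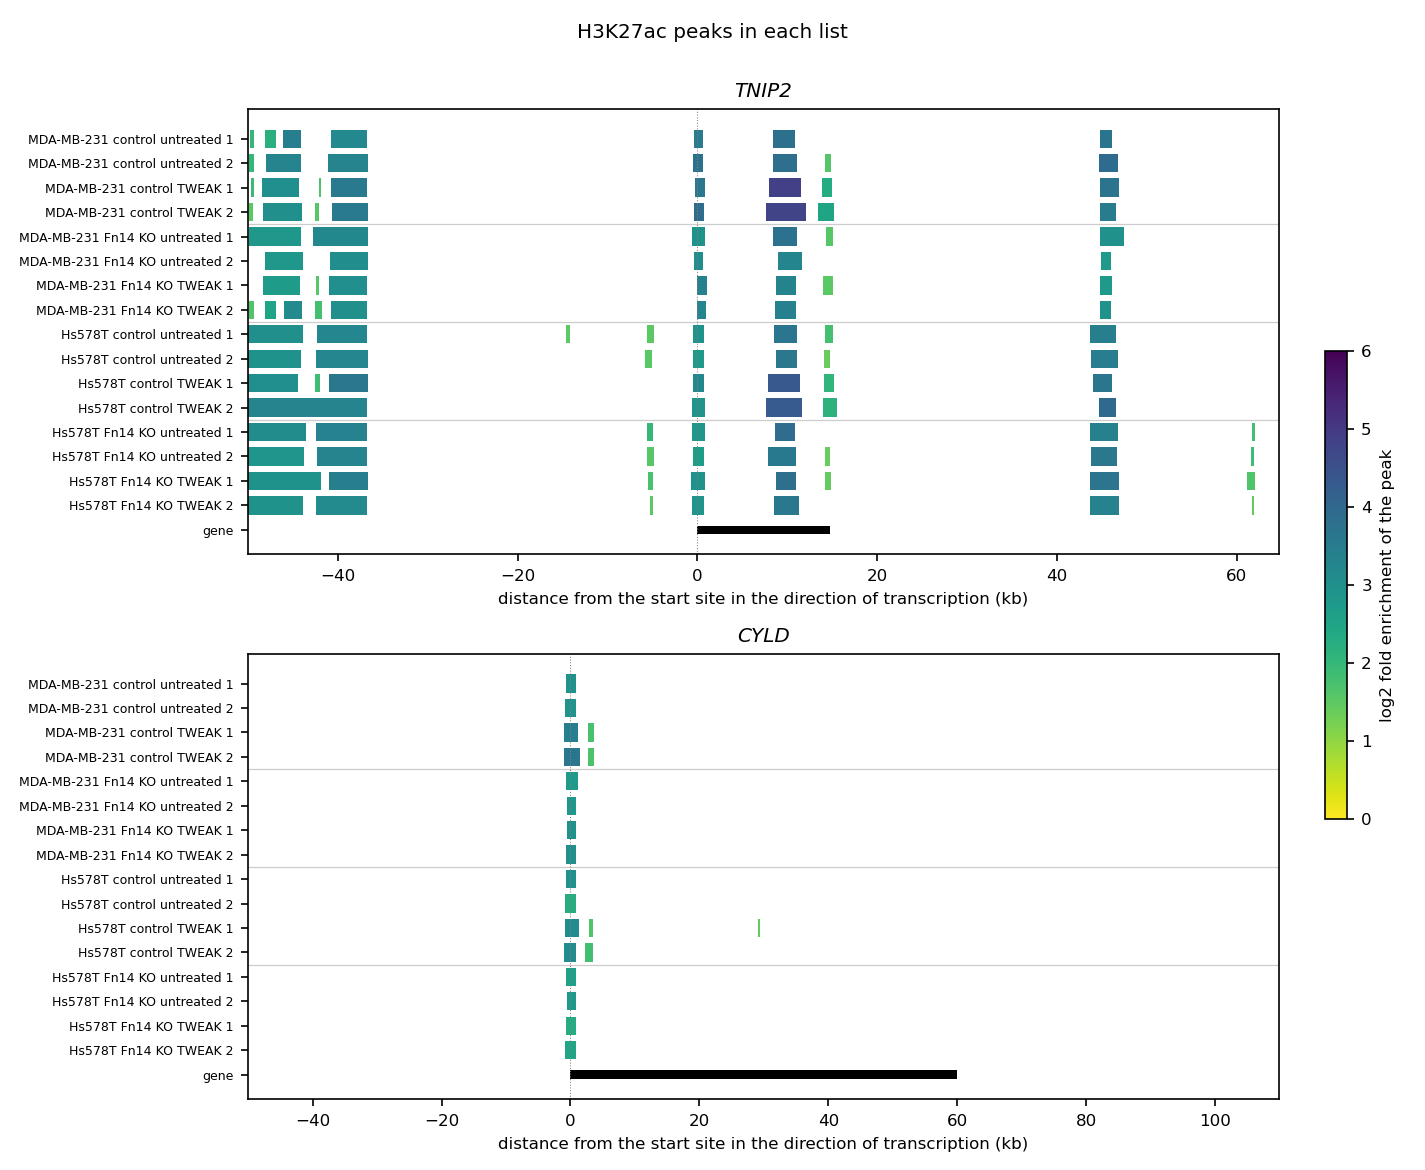
H3K27ac peaks of the 16 lists (lines of bars) against distance from the start site in the direction of transcription (kb) for TNIP2 (top) and CYLD (bottom); bar colour gives the log2 fold enrichment of the peak and the black bar the gene. The peak within TNIP2 is darkest in the 4 control TWEAK lists, at 19.8 to 29.3, and the short peak after the CYLD promoter appears in those 4 lists alone.

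**Figure D4:**
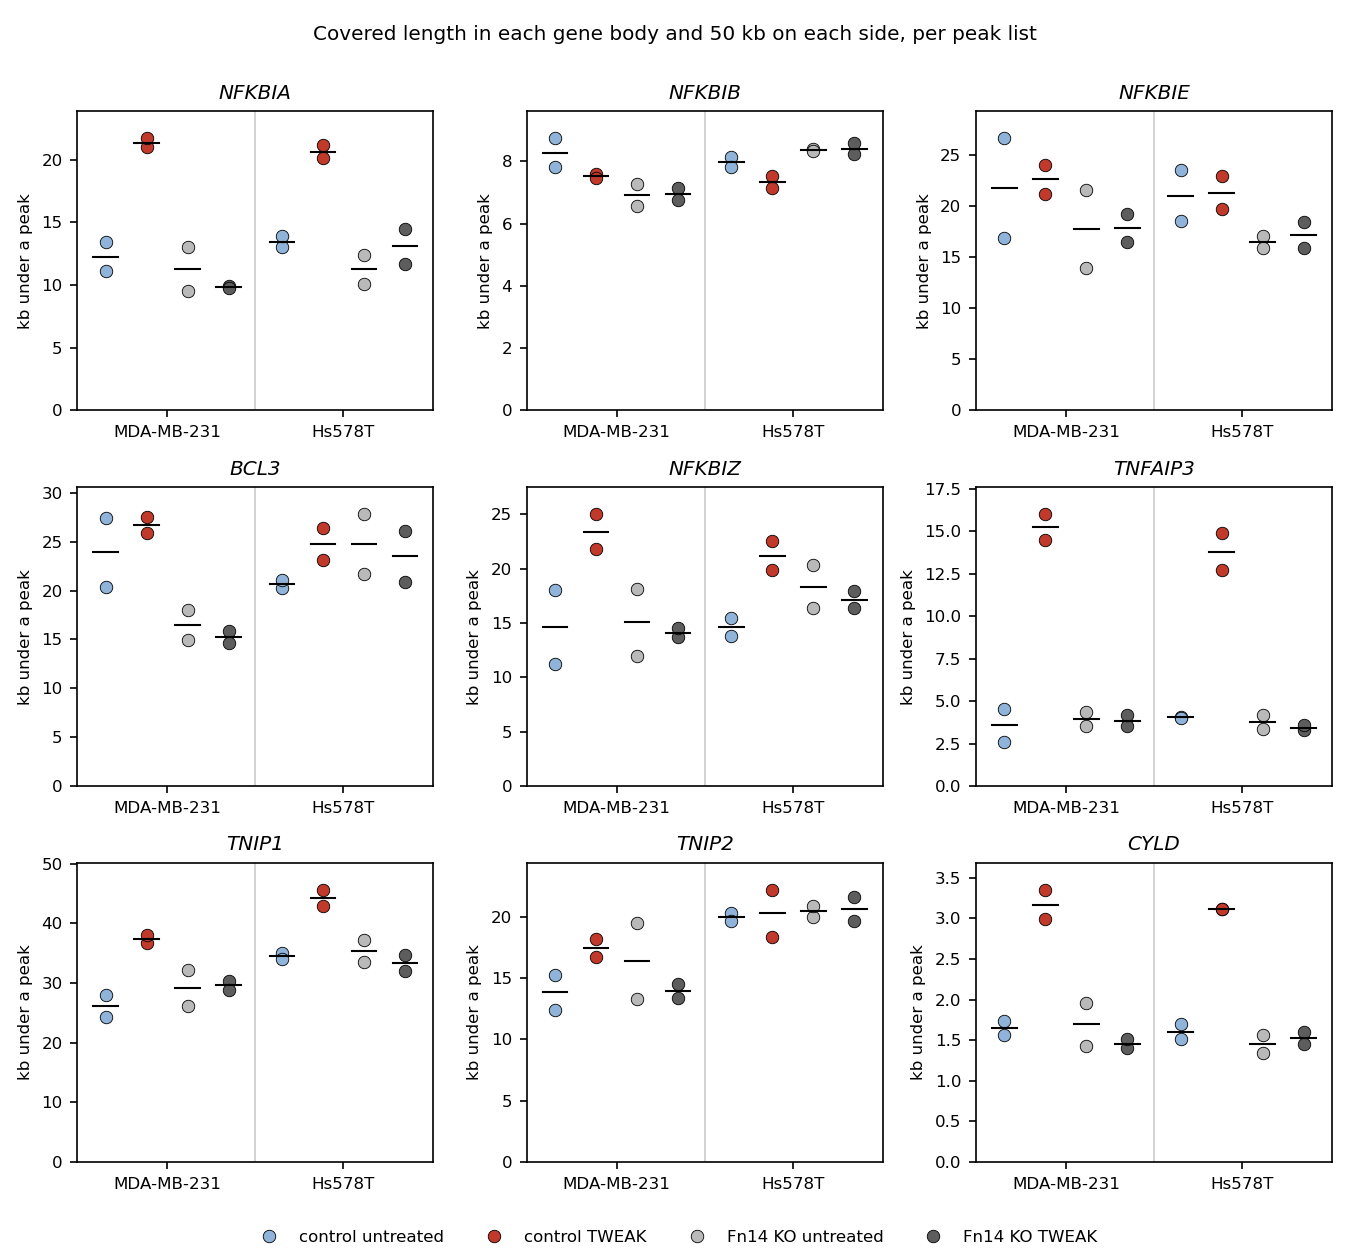
Length under an H3K27ac peak (kb) in the gene body and 50 kb on each side for the 9 genes, with a point for each list and a line at the mean of each group of 2; colours give genotype and treatment, and MDA-MB-231 is left of Hs578T. The control TWEAK lists (red) stand clear of the others for TNFAIP3 at 12.7 to 16 kb, for NFKBIA at 20.1 to 21.7 kb and for CYLD at 2.99 to 3.35 kb.

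**Figure D5:**
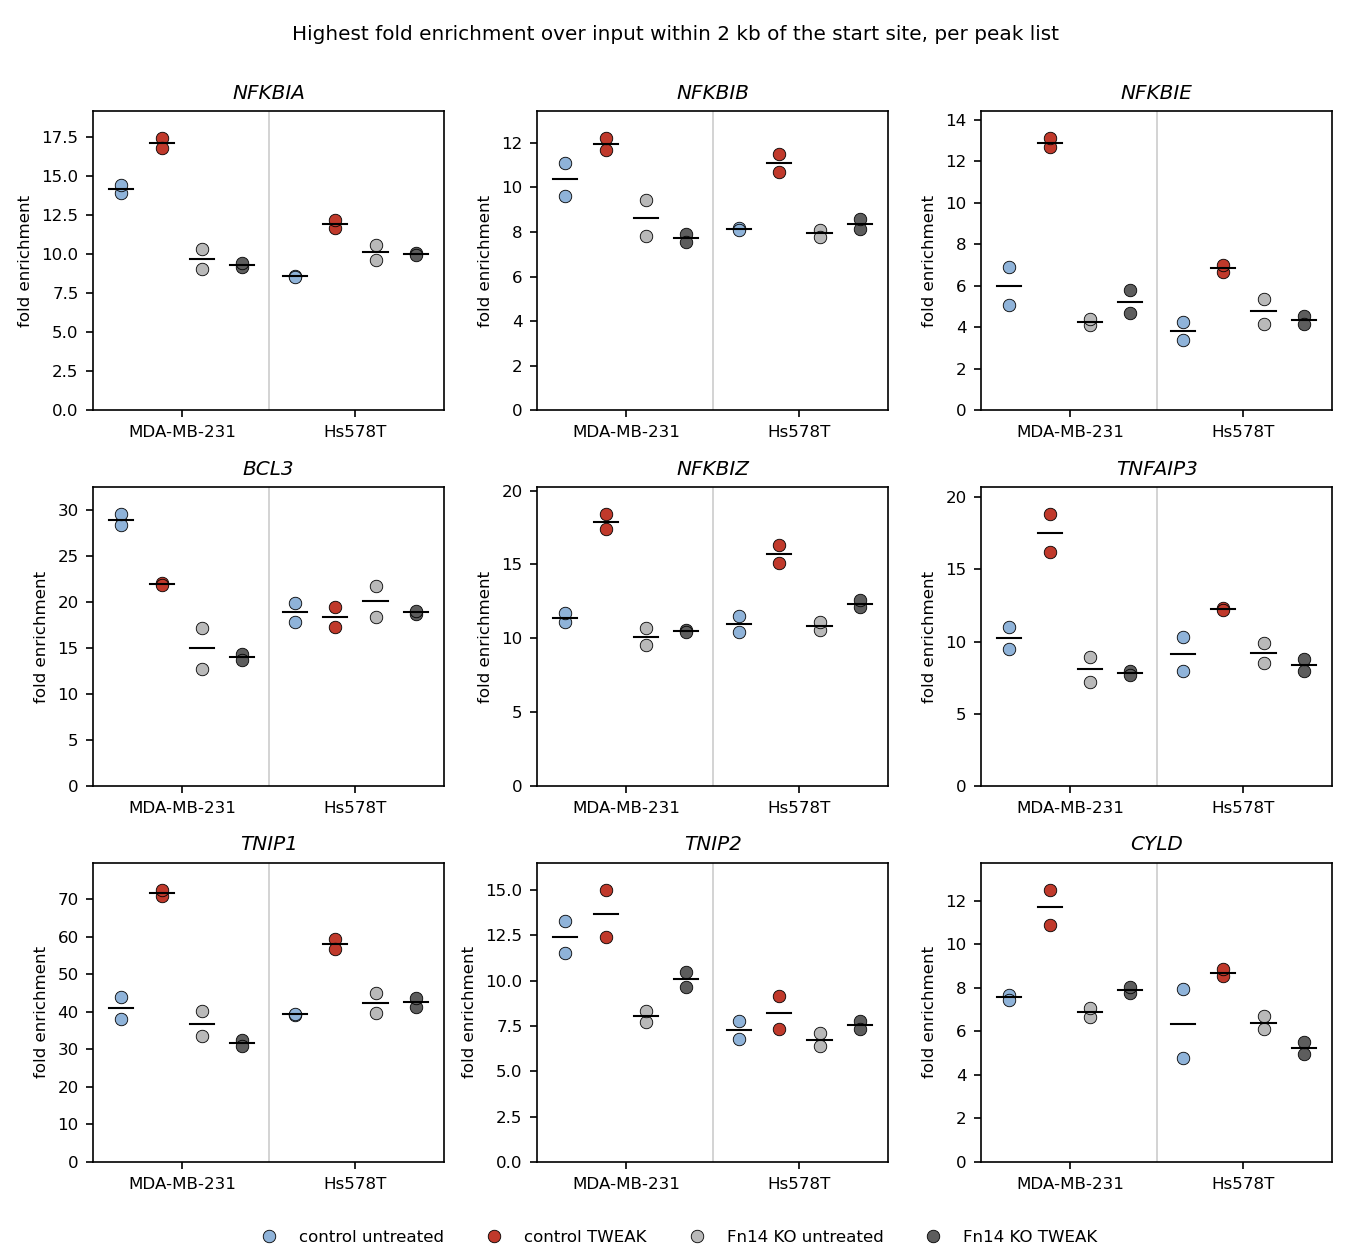
Highest fold enrichment over input within 2 kb of the start site for the 9 genes, with a point for each list and a line at the mean of each group of 2; colours give genotype and treatment, and MDA-MB-231 is left of Hs578T. The control TWEAK lists (red) stand highest for TNIP1 at 56.9 to 72.5, and in MDA-MB-231 they lie below the untreated lists for BCL3.

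The dependence on Fn14 was tested as the TWEAK difference in control cells minus that in KO cells. At the locus window TNFAIP3, CYLD, NFKBIA and TNIP1 passed, or 4 of 9, with 2.63% of all genes called higher and 2.07% lower. The log2 values were 1.77 ± 0.17 for TNFAIP3, 0.70 ± 0.11 for CYLD (adjusted p = 0.0034), 0.65 ± 0.15 for NFKBIA (adjusted p = 0.026) and 0.45 ± 0.12 for TNIP1 (adjusted p = 0.045). NFKBIA lost the call without any of 10 single lists, at an adjusted p of 0.052 to 0.072, and TNIP1 without any of 13, at 0.065 to 0.11. At the promoter NFKBIE, TNIP1, TNFAIP3, NFKBIZ and NFKBIA passed, or 5 of 9, against 6.75% higher and 6.76% lower (713 and 715 calls, and 688 and 279 without centring). The value for NFKBIA was 0.33 ± 0.09 (adjusted p = 0.027), and it lost the call without any of 8 single lists, at an adjusted p of 0.05 to 0.067.

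An exact permutation test of the treatment labels within line and genotype was run on the same difference, gene by gene. It was two-sided and unadjusted, with 1296 arrangements and a smallest possible p of 0.00154. Its null is that TWEAK changes nothing in either genotype, so a small p does not by itself show that the genotypes differ. Its promoter values were neither log2 nor centred on the list median, unlike those of limma. It was run on the members alone, so the share of all genes with such p-values is not known. By limma the same difference had an unadjusted p under 0.05 at 3318 of 17915 loci and 2882 of 10570 promoters. For the locus length in kb the excess in control cells was 10.9 kb for TNFAIP3 (exact permutation p = 0.0123), 8.77 kb for NFKBIZ (p = 0.0170, exact), 11.3 kb for TNIP1 (p = 0.0201, exact), 1.60 kb for CYLD (p = 0.0201, exact) and 7.95 kb for NFKBIA (p = 0.0324, exact). It was 4.63 kb for BCL3 (p = 0.0988, exact), 3.06 kb for TNIP2 (p = 0.165, exact), 0.225 kb for NFKBIE (p = 0.944, exact) and -0.718 kb for NFKBIB (p = 0.0633, exact). For the promoter fold enrichment it was 27.3 for TNIP1 (exact permutation p = 0.0108), 5.73 for TNFAIP3 (p = 0.0123, exact), 3.40 for NFKBIA (p = 0.0154, exact), 2.53 for NFKBIB (p = 0.0309, exact), 4.65 for NFKBIE (p = 0.0417, exact) and 3.31 for CYLD (p = 0.0448, exact). It was 4.69 for NFKBIZ (p = 0.0571, exact), -2.68 for BCL3 (p = 0.275, exact) and -0.266 for TNIP2 (p = 0.826, exact). Within a single genotype the test has 36 arrangements and cannot go below 0.0556.

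Each line was also tested by itself. At the locus window TNFAIP3, NFKBIA, CYLD and TNIP1 passed in MDA-MB-231 (log2 1.86, 0.76, 0.65 and 0.50), with 3.42% of all genes called higher and 3.35% lower. In Hs578T TNFAIP3, CYLD and NFKBIA passed (log2 1.54, 0.66 and 0.59), with 2.08% higher and 2.76% lower. The 4 calls in MDA-MB-231 became 1 without its second TWEAK list and 2 without its first TWEAK or first untreated list, and the 3 in Hs578T became 1 without its first TWEAK list. At the promoter NFKBIE, TNIP1, TNFAIP3, NFKBIZ and CYLD rose and BCL3 fell in MDA-MB-231 (7.58% and 8.21% of all genes), and NFKBIE, TNIP1, NFKBIZ, NFKBIA and NFKBIB rose in Hs578T (5.0% and 4.91%), where the 5 calls became 2 without its second TWEAK list and 3 without its first untreated list. Without centring the calls over all promoters were 694 higher and 404 lower in MDA-MB-231, in place of 801 and 868, and 381 and 213 in Hs578T, in place of 528 and 519. The difference of the TWEAK effect between the lines passed for 0 members at the locus, where 0.0391% and 0.0893% of genes did, and for 0 of 10570 genes at the promoter, where 703 had an unadjusted p under 0.05 in limma.

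Without TWEAK, Fn14 KO cells differed from control cells at the promoter of BCL3 (log2 -0.31 ± 0.08, adjusted p = 0.046) and at no member locus, where 0.927% of promoters were higher and 1.36% lower, and 0.329% and 0.268% of loci. The BCL3 promoter stood at 17.2 and 12.7 in untreated MDA-MB-231 KO lists and at 21.7 and 18.4 in Hs578T ones, so they lay below the untreated control lists in MDA-MB-231 and overlapped them in Hs578T. That call was lost on leaving out any of 15 of the 16 lists, all but the first untreated MDA-MB-231 KO list, where 1 member passed, and with any transcript start, a peak in at least 8 lists or −log10 q as the measure. Between the lines, the promoters of TNIP2 (log2 -0.51, adjusted p = 0.012), NFKBIA (-0.45, adjusted p = 0.0032) and BCL3 (-0.35, adjusted p = 0.026) were lower in untreated Hs578T than in MDA-MB-231 control cells, with 11.7% of promoters higher and 11.5% lower. Uncentred, the median log2 difference of all promoters was -0.26 between the lines (252 calls higher and 3751 lower, in place of 1235 and 1219) and -0.14 for KO against control cells (21 and 1155, in place of 98 and 144), and the values here are relative to those shifts. No member locus differed by line (4.18% and 0.860% of loci, or 748 and 154 calls, and 742 and 924 when scaled to the list total). The locus values of TNIP1 (log2 0.39, adjusted p = 0.074) and TNIP2 (log2 0.50, adjusted p = 0.084) were the nearest.

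The member windows held 63 regions, of 55219 found in at least 2 lists, and 34 of them were present in all 16 lists. With TWEAK, 7 regions were gained in control cells of MDA-MB-231, meaning present in both TWEAK lists and no untreated list (5.58% of all regions), and 1 was lost (4.49%). In Hs578T control cells 6 were gained (5.09%) and 2 lost (4.65%). The gains shared by both lines were 5, of which TNFAIP3 held 2 and CYLD, TNIP1 and the NFKBIE window 1 each. The share of all regions gained in both lines at once was not counted. In Fn14 KO cells 0 were gained in either line (0.321% and 1.05%), and 1 was lost in Hs578T (0.829%), 14.2 kb before TNFAIP3. The remaining gains were a region 58.4 kb after the TNIP1 start in MDA-MB-231 (chr5:151034499-151035896), the WAKMAR2 region near TNFAIP3, and in Hs578T a region 48.4 kb before TNIP1, at a start of ANXA6 (chr5:151140834-151143022). The other loss in Hs578T was a region 5.33 kb before TNIP2. Compared at the same treatment, the KO lists lacked 8 member regions of the TWEAK control lists in MDA-MB-231 (6.21%) and 9 in Hs578T (6.93%), and held 0 (3.21%) and 4 (6.55%) that the controls lacked. Among untreated lists the KO lacked 2 and held 1 extra in MDA-MB-231 (2.08% and 2.14%), and lacked 1 and held 1 extra in Hs578T (2.25% and 2.02%), and Hs578T controls held 2 that MDA-MB-231 controls lacked (5.15%) and lacked 0 (1.81%).

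Among the 34 regions present in all lists, the fold enrichment of 19 rose with TWEAK in control cells and that of 5 fell, against 22.3% and 24.1% of 28337 such regions. For 14 regions the rise was also larger than in KO cells, and for 3 the fall was. By the excess over KO cells alone the calls were 14 higher and 3 lower, against 16.1% and 16% of all such regions. TWEAK in KO cells gave 0 calls by limma, with 1118 regions at an unadjusted p under 0.05. Without TWEAK, 2 of the 34 were lower in KO than in control cells, in the gene body of BCL3 (log2 -0.36, adjusted p = 0.017) and 45.6 kb after the TNIP2 start (log2 -0.35, adjusted p = 0.041), against 3.45% higher and 4.15% lower. Between the lines 8 were lower in Hs578T and 1 higher, 29.8 kb after the NFKBIA start (log2 0.40), against 17.7% and 15.6%. The 5 that fell with TWEAK were the 3 of the TNIP1 window named above and 2 at the BCL3 promoter and gene body (log2 -0.32 and -0.23).

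The rest of the pathway was taken from lists of NF-κB subunits, kinases and adaptors, other restraining genes and target genes. At the locus window, where 6.78% of all genes were called higher and 10.5% lower, 2 of 5 subunit genes rose (NFKB1, log2 0.62, and NFKB2), and 5 of 14 kinase and adaptor genes rose while 2 fell. Of the latter list TRAF1, an adaptor of TNF receptors, was at 1.07 and TRAF6, the adaptor of interleukin-1 receptors, at -0.55. BIRC2 (1.09) and BIRC3 (1.05), ubiquitin ligases of TNF receptor complexes, share a window, so their values are not separate. Of the other restraining genes 1 of 12 rose, TNIP3 (0.60), which encodes ABIN3. Of the target genes 5 of 14 tested rose, among them CXCL3 (1.33), CXCL1 (0.77) and CXCL8 (0.48), chemokine genes of the same chromosome, and BCL2A1 (0.90), a survival gene. At the promoter, where 12.2% of all genes were called higher and 14.1% lower, 2 of 5 subunit genes rose (NFKB2 and RELA), and 6 of 13 kinase and adaptor genes tested rose while 1, RIPK1, fell. Of the other restraining genes 1 of 10 tested rose (ZC3H12A) and 3 fell (NFKBID, RNF11 and OTULIN). Of the target genes 3 of 8 tested rose (CXCL3, IL6 and ICAM1) and 1 fell (CXCL2). These promoter calls, and NFKB2 at the locus, lie outside the rule for named genes and were named after their values were seen.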

How the data were processed

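H3K27ac ChIP-seq was measured in MDA-MB-231 and Hs578T cells, as 16 broad-peak lists in 8 groups of 2. Per the study's methods and the labels, the authors trimmed reads with Trimmomatic, aligned them with Bowtie2 to hg38, called peaks per sample with MACS2 against input and removed blacklisted regions. Tool versions are not given in the sources used here. The deposited columns are peak positions, a display score, the fold enrichment over input (a ratio), and −log10 p-values and −log10 q-values, all deposited by the authors as MACS2 wrote them. Because the deposited values are peaks and not read counts, counts under peaks and their differential test were not run, and only a peak that passed the caller is seen.

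Peaks were joined to GENCODE 44 protein-coding genes. The log2 of the locus length (pseudocount 1 kb, genes with a peak in at least 2 lists) and the log2 of the promoter fold enrichment (genes with a promoter peak in all 16 lists, centred on the list median) were fitted over all 8 groups with limma 3.58.1 in R 4.3.3, after a check on simulated data, with a threshold of 0.05. A fold change on the log2(kb + 1) scale understates the change of short loci. Contrasts averaged the lines. Merged regions were called gained where both lists of the first group and no list of the second held a peak. The fit of regions in all lists and the base-by-base count were added after the data were seen. Windows hold neighbouring genes, and no peak is assigned to a target. Where lists are said not to overlap, the share of all genes whose lists separate likewise was not counted. The members and lists were chosen with earlier results of these data known. All 9 members are named, with every region gained or lost in control cells and, with values, up to 10 genes of the pathway lists past the threshold at the locus window with TWEAK in control cells, by size. A marker gene and a gene of similar pattern are not reported here. Alternatives changed the window, filter, pseudocount, scaling, measure and peak threshold, left out each list, and added the replicate number as a block.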

Additional observations from a re-analysis of the deposited data

Results flagged for a closer look

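The TWEAK difference in control cells exceeded that in Fn14 KO cells, by limma's test of the difference itself, for 4 members in the locus window: the log2 excess was 1.77 for TNFAIP3, 0.70 for CYLD, 0.65 for NFKBIA and 0.45 for TNIP1. In the promoter window it did so for 5 members, with a log2 excess of 0.81 for NFKBIE, 0.71 for TNIP1, 0.61 for TNFAIP3, 0.39 for NFKBIZ and 0.33 for NFKBIA. Each value compares genotypes over both lines. TNFAIP3, TNIP1 and NFKBIA are on both lists.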

How the results depend on the processing

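TNFAIP3 passed under all 27 locus settings, in control cells and in the excess over Fn14 KO cells. In control cells NFKBIA, TNIP1 and CYLD passed in 26 and NFKBIZ in 24. In the excess over KO cells CYLD passed in 26, NFKBIA in 14, TNIP1 in 7 and NFKBIZ in 3. Over 24 promoter settings NFKBIE, TNFAIP3 and TNIP1 passed both tests throughout, and NFKBIA passed the excess in 16. The cause of each change below was not tested. Unless stated, calls over all genes under the same setting were not set beside these counts of members. With the number of peaks in place of their length, NFKBIA (log2 -0.11 in control cells and -0.08 in the excess) and BCL3 (-0.61) changed direction. So did the excess of BCL3, NFKBIZ and TNIP2, at -3.75, -1.75 and -1.25 peaks, and TNIP2 in control cells, at -0.250 peaks. For NFKBIZ the difference in control cells was 0.250 peaks. By number of peaks, members called were 3 in control cells, 2 in the excess and 2 in MDA-MB-231. The excess also had 2 members with no filter, a pseudocount of 0.1 kb or a window of 100 kb. In Hs578T control cells 5 members passed when scaled to the list total. Calls over all genes were then 1136 higher and 1053 lower, in place of 373 and 494. With a window of 100 kb 1 member passed in Hs578T. With that window CYLD was at log2 0.24 in control cells over both lines (adjusted p = 0.085, with 7.3e-06 to 0.085 over all settings). Between the lines 1 locus passed with a pseudocount of 5 kb or when scaled to the list total. At the promoter, KO against untreated control cells gave 0 members with any transcript start, a peak in at least 8 lists or −log10 q as the measure, and 2 without centring, while the lines gave 1 with −log10 q and 5 without centring. Without centring BCL3 was at -0.22 with TWEAK (adjusted p = 0.14, with 0.01 to 0.14 over all settings).

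Leaving out 1 list at a time gave 4 to 5 member loci in control cells and 2 to 5 in the excess. The excess had 2 without either control TWEAK list of each line, the first untreated control list of each line, either TWEAK KO list of MDA-MB-231, or the second TWEAK or first untreated KO list of Hs578T. NFKBIA lost its locus excess without each of these, and TNIP1 also without the first TWEAK KO, second untreated KO or second untreated control list of Hs578T. NFKBIA lost its promoter excess without the first list of either KO group, the second TWEAK or the first untreated control list of Hs578T, or the first TWEAK list of either genotype or the second untreated list of either genotype of MDA-MB-231. MDA-MB-231 gave 1 to 5 (1 without the second TWEAK list, 2 without the first TWEAK or first untreated list), Hs578T 1 to 4 (1 without the first TWEAK list) and the lines 0 to 2 (2 without either untreated KO list and 1 without the second untreated control list of MDA-MB-231). At the promoter the excess gave 3 to 6 and Hs578T 2 to 5, both lowest without the second Hs578T TWEAK list, and Hs578T gave 3 without its first untreated list. KO against untreated control cells gave 0 to 1, with 1 only without the first untreated MDA-MB-231 KO list, and the lines 1 to 3, with 1 without the second untreated MDA-MB-231 control list.

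The next counts are of regions in member windows alone. The share of all regions called under each altered rule was not set beside them, and the shares of the main rule do not apply. In control cells of MDA-MB-231 the gained regions numbered 13 where a peak had to cover 50% of the region, 4 and 11 with windows of 10 and 100 kb, and 8 to 11 without 1 list (11 without the second untreated list). Those lost numbered 0 within 10 kb and 1 to 2 without 1 list (2 without the first list of either group). In Hs578T control cells 11 were gained at 50% cover, 3 within 10 kb and 7 to 10 without 1 list (10 without the second untreated list), and 1 was lost at 50% cover or within 10 kb, 0 with −log10 q of at least 2 or lists trimmed to 39544 peaks, and 2 to 3 without 1 list. In MDA-MB-231 KO cells 0 to 3 were gained and 0 to 1 lost without 1 list (3 gained without the first untreated list), and 1 was lost at 50% cover. In Hs578T KO cells 0 to 2 were gained (2 without the first untreated list) and 1 to 3 lost without 1 list (3 without the second untreated list), and 0 were lost within 10 kb.

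With the replicate number as a block the locus excess gave 3 members (NFKBIA, CYLD and TNFAIP3), with TNIP1 at adjusted p = 0.063 (0.0014 to 0.67 over all settings). The block changed no other call of a member. Over 28 pairs of groups, the deviations of same-numbered lists correlated at r of -0.205 to 0.105 for loci and -0.156 to 0.172 for promoters. These values had no common direction. They cannot exclude that lists with the same number were handled together.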

Other observations

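By Pearson r of the log2 locus length over the 16 lists, the genes more than 1 Mb away that were most like TNFAIP3 were MAGEA8, C5 and SLC22A8 (r = 0.98 each). TNFAIP3 itself was the gene most like CYLD (r = 0.97), followed by PHF19 and MAGEA8. NFKBIA was most like ST20-MTHFS, NCEH1 and SRPK1 (0.96 each), TNIP1 like IGDCC4, IGDCC3 and DPP8 (0.96 each), and NFKBIZ like SLC25A34 (0.94) and UQCRHL (0.93). The windows of C5 and PHF19 overlap that of TRAF1, and IGDCC4, IGDCC3 and DPP8 lie near each other. The lists share line, genotype and treatment, so these values describe the same grouping and carry no test.

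Of 36 stretches gained base by base in the member windows of both control lines, the 18 of at least 300 bp were searched, and their middle 300 bases held a κB match in 4 (22.2%) and an AP-1 match in 7 (38.9%). Over the whole genome 20.7% of 2129 gained stretches of that length held a κB match and 24.6% an AP-1 match, against 5.90% and 20.2% of 1391 lost stretches. The member windows lost 0.397% of their covered bases by the same rule and gained 6.09%.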
